A study of Homo sapiens with 12 samples.

Results

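The T-box genes TBX2, TBX3, TBX4 and TBX5 were examined across 6 deposited lists of genomic regions. A member was any region of a list that lay in 1 of these 4 genes or within 20 kb of it, and 44 of the 169273 regions in the 6 lists met that rule. The 4 genes were chosen by earlier results from these same lists, in which wide H3K18ac blocks of IMR90 cells stood out, 1 of them at TBX2. Their H3K18ac levels in IMR90 and H1 are therefore given as a description, without a test. The genes were placed on hg19 to the nearest kb: TBX2 on chromosome 17 from 59.477 to 59.487 Mb, TBX4 on the same chromosome from 59.533 to 59.562 Mb, TBX5 on chromosome 12 from 114.791 to 114.847 Mb, and TBX3 on that chromosome from 115.108 to 115.122 Mb.

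The lists came from libraries of 2 kinds made in 3 established human cell lines. H3K18ac, acetylation of lysine 18 of histone H3, was mapped by chromatin immunoprecipitation in IMR90 cells and in H1 embryonic stem cells. IMR90 is a line of primary lung fibroblasts. DNA that had incorporated the thymidine analogue bromodeoxyuridine (BrdU) during replication was mapped in IMR90 cells, in Saos-2 osteosarcoma cells and in 2 siRNA-treated H1 cultures. Of these, the H1 control received non-targeting siRNA and the H1 knockdown received siRNA against EP300 and CREBBP, which encode acetyltransferases of H3K18. Both H1 cultures also received the compound HA 1077 at 10 µM and were collected 72 h after transfection with DharmaFECT 1. No siRNA or additive is given for the IMR90, Saos-2 and H1 H3K18ac libraries, so H1 BrdU regions differ from all other lists in stated treatment as well.

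T-box proteins are transcription factors that share a DNA-binding domain named after Brachyury. TBX2 and TBX3 act mainly as repressors, whereas TBX4 and TBX5 act mainly as activators. In vertebrates the genes lie in linked pairs, TBX2 beside TBX4 and TBX3 beside TBX5, that descend from 1 ancestral pair. TBX5 patterns the forelimb and the heart, TBX4 the hindlimb, TBX3 the limb and mammary gland, and TBX2 the heart and limb, and mesenchyme of the developing lung expresses all of them. H3K18ac is deposited by EP300 and CREBBP and is found at active promoters and enhancers.

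Each group had 1 library, which leaves every difference below without a measure of replicate spread. The lists held 84471 H3K18ac regions in IMR90 and 65946 in H1, and between 1755 and 6272 BrdU regions. Read depth is unknown, because the lists give no read counts. Where a list lacks a region, the signal there may have fallen just short of the authors' threshold. The last column of each list is a whole number per region, called the score here, whose meaning is not given in the sources used here. Scores were compared only among regions of 1 list. Markers of the 3 cell lines were not analysed here, because gene positions on hg19 were used for these 4 genes alone.

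In IMR90 fibroblasts broad H3K18ac domains covered most of TBX2 and TBX3 and the first part of TBX5, and TBX4 had none. The IMR90 list held 35 of the 44 regions, of which 12 were at TBX3, 11 at TBX5, 10 at TBX2 and 2 at TBX4. They covered 21.9 kb of the TBX3 window, 18.2 kb of the TBX2 window, 16.3 kb of the TBX5 window and 0.5 kb of the TBX4 window, where a window is the gene with 20 kb on each side. In H1 the same windows held 2 regions at TBX2 and 1 at each of TBX3, TBX4 and TBX5, and each of these 5 regions was a single grid window of 100 bp. Over the 4 windows IMR90 regions covered 56.9 kb and H1 regions 0.5 kb, a ratio of 114, whereas over the whole lists the ratio was 2.51. By number of regions the ratio was 7 in the windows and 1.28 over the lists. The ratio of covered lengths rests on only 5 H1 regions and on the width of the IMR90 regions, for which the genes had been chosen.

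**Figure D1:**
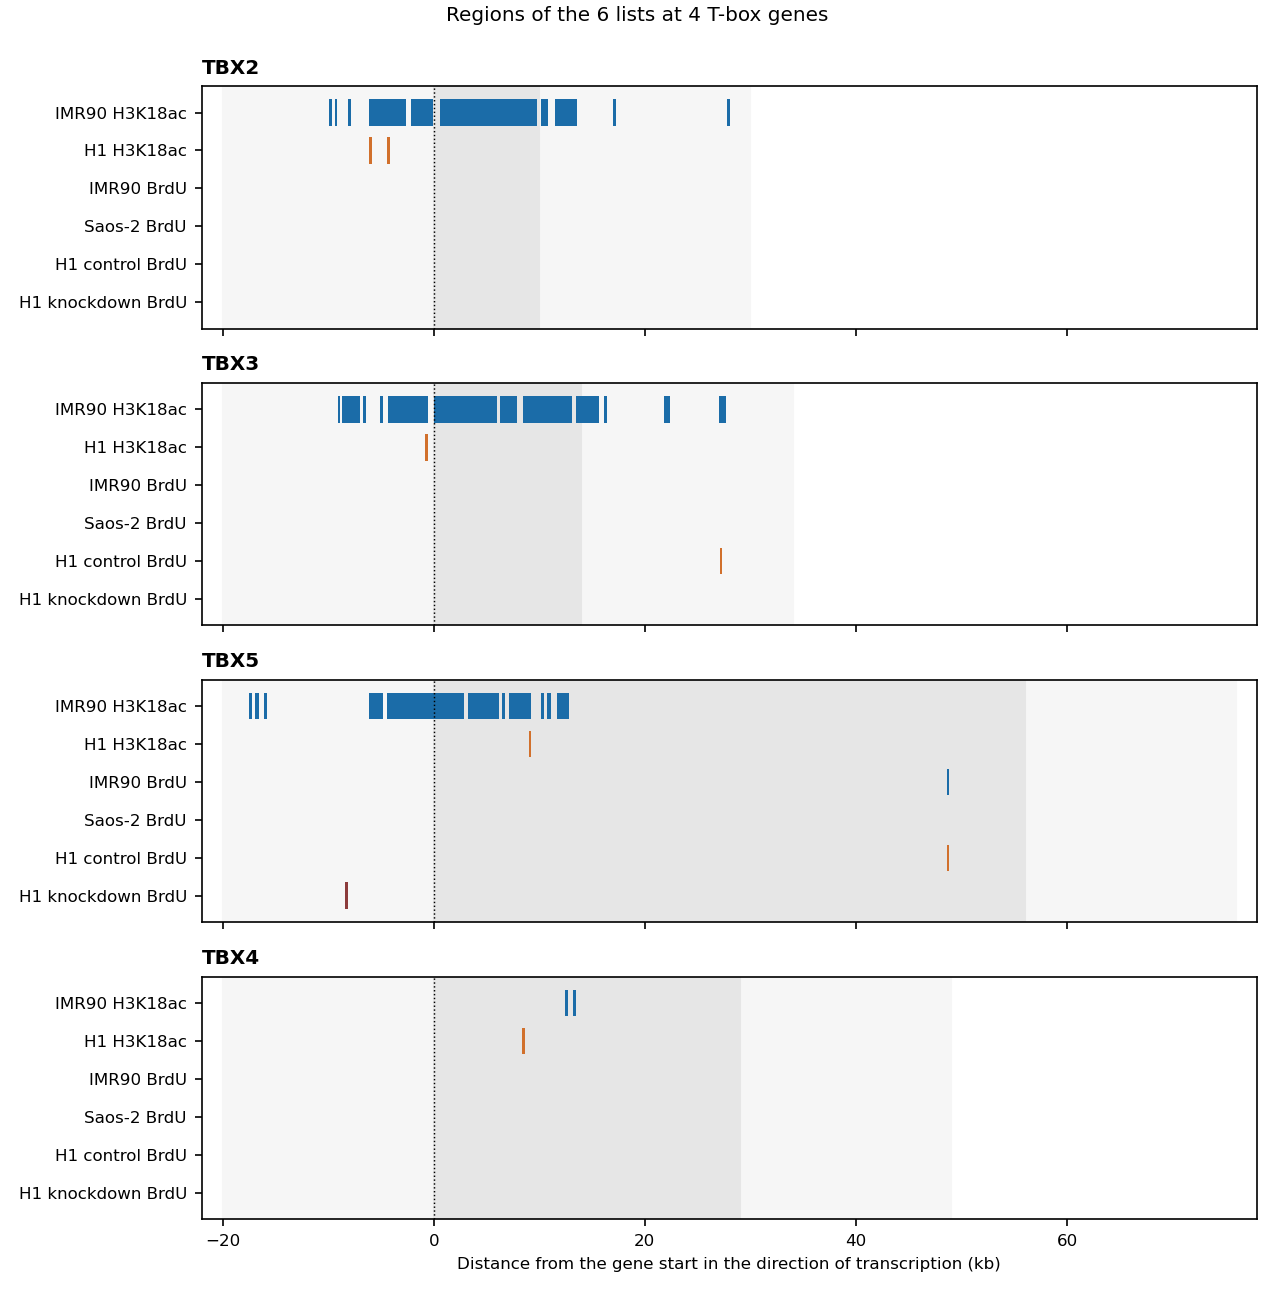
Regions of the 6 lists at TBX2, TBX3, TBX5 and TBX4, by distance from the gene start in kb along the direction of transcription; dark grey marks the gene, light grey the 20 kb on each side, and the shortest regions are drawn wider than they are so that they can be seen. IMR90 H3K18ac forms broad domains over the start of TBX2, TBX3 and TBX5, while TBX4 holds 2 short regions, and the H1 lists show single narrow regions.

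The width of the TBX2, TBX3 and TBX5 domains can be read against the rest of the genome. The autosomes were divided into tiles as long as each window, leaving out stretches of 500 kb that held no region of any list. Of such tiles, 0.112% had at least as much IMR90 H3K18ac as the TBX2 window, 0.0656% as much as the TBX3 window and 0.827% as much as the TBX5 window. The TBX4 window did not stand apart by this measure, as 32.7% of tiles matched or exceeded it. In H1 all 4 windows were ordinary: 33.9% of tiles matched or exceeded TBX2, 49.3% TBX3, 55.4% TBX4 and 64.2% TBX5. These percentages describe where the genes lie in each list and, as the IMR90 and H1 lists entered the choice of the genes, support nothing further.

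TBX2, the repressor gene at the start of the pair on chromosome 17, carried the longest single region of the 4 windows. This region spanned 9200 bp at 59477601 to 59486800, had a score of 4025, ranked 6 by score and 7 by length among the 84471 IMR90 regions, and filled 92% of the gene. Upstream of it lay a region of 2100 bp at 59474801 to 59476900 and one of 3500 bp at 59470901 to 59474400. The 700 bp between the longest region and the first of these contained the gene start as placed here. Downstream, a region of 600 bp at 59487201 to 59487800 and one of 2100 bp at 59488501 to 59490600 followed the end of the gene. The remaining 5 IMR90 regions of the window were 100 or 200 bp long. On the RefSeq annotation of GRCh38 the next genes on either side of TBX2 are TBX2-AS1 and LINC02875, and a list without strand does not assign the flanks of the block to a gene.

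In H1 the TBX2 window held 2 regions of 100 bp, at 59470901 to 59471000 and at 59472601 to 59472700. Both lay upstream of the gene, at 6.1 to 6.0 kb and 4.4 to 4.3 kb from its start, and both fell inside the IMR90 region of 3500 bp. Their scores of 27 and 22 were above those of 40.5% and 21.7% of the H1 list. The body of TBX2 held no H1 region.

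TBX3, the repressor gene of the pair on chromosome 12, was covered over 90.7% of its length in IMR90. Its region of highest score measured 6000 bp at 115116001 to 115122000, had a score of 2473, ranked 37 by score and 48 by length in the list, and ended at the gene start. The gene is transcribed towards lower coordinates, so this region covered its first 6.0 kb. Further into the gene lay a region of 1600 bp at 115114101 to 115115700 and another, 4600 bp long, at 115108901 to 115113500, and a region of 2200 bp at 115106301 to 115108500 crossed the end of the gene. Upstream, a region of 3800 bp at 115122501 to 115126300 began 500 bp from the gene start, and a separate region of 1700 bp lay at 115129001 to 115130700. A region of 700 bp at 115094301 to 115095000 and another, 600 bp long, at 115099601 to 115100200 lay beyond the end of the gene. TBX3-AS1 overlaps TBX3 in RefSeq, and a list without strand cannot assign the upstream regions to either gene.

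The single H1 region at TBX3 lay at 115122701 to 115122800, between 0.8 and 0.7 kb upstream of the gene start. It was inside the IMR90 region of 3800 bp. Its score of 28 exceeded that of 43.0% of the H1 list.

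TBX5, the activator gene of the same pair, was marked over its first part only. Its widest IMR90 region measured 7300 bp at 114844101 to 114851400, had a score of 2251, ranked 56 by score and 21 by length, and reached from 4.4 kb upstream of the gene start to 2.9 kb inside the gene. A region of 3000 bp at 114840801 to 114843800 and one of 2100 bp at 114837801 to 114839900 followed within the gene, and the last, of 1100 bp at 114834201 to 114835300, ended 12.8 kb from the start. The rest of the gene and the 20 kb beyond its end held no IMR90 H3K18ac region, so that 17.7% of the gene was covered. A region of 1300 bp at 114851801 to 114853100 flanked the block upstream. Further upstream, between 15.8 and 17.5 kb from the start, lay 3 short regions of 100 to 300 bp. TBX5-AS1 overlaps TBX5 in RefSeq, as at TBX3. The H1 region at TBX5, at 114837901 to 114838000, lay 9.0 to 9.1 kb inside the gene and within the IMR90 region of 2100 bp. Its score of 28 equalled that of the H1 region at TBX3.

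TBX4, the activator gene next to TBX2, had 2 IMR90 regions, 1 of 300 bp at 59545401 to 59545700 and a shorter one of 200 bp at 59546201 to 59546400. They lay 12.4 to 13.4 kb inside the gene, covered 1.72% of it, and had scores above those of 56.3% and 37.5% of the list. Neither the gene start nor the 20 kb on either side of TBX4 held an IMR90 region. The H1 region at TBX4, at 59541401 to 59541500, lay 8.4 to 8.5 kb inside the gene and 3.9 kb from the nearer IMR90 region. It was the only 1 of the 5 H1 regions outside an IMR90 region.

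**Figure D2:**
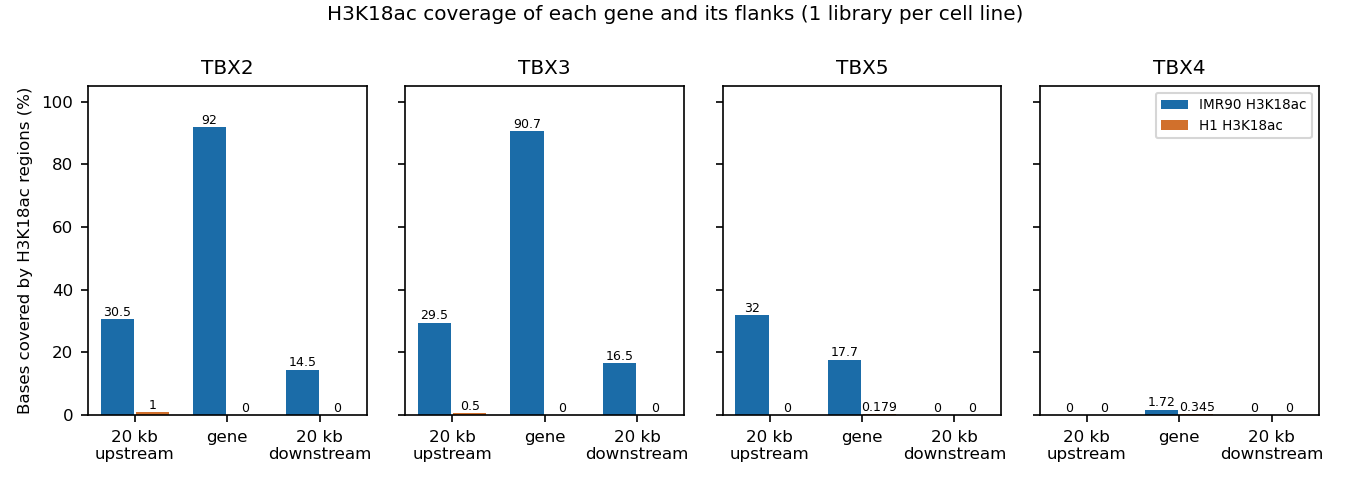
Share of bases (%) covered by H3K18ac regions in the 20 kb upstream, the gene and the 20 kb downstream of TBX2, TBX3, TBX5 and TBX4, with IMR90 in blue and H1 in orange and 1 library for each bar. IMR90 covers 92% of TBX2, 90.7% of TBX3, 17.7% of TBX5 and 1.72% of TBX4, and the upstream share of the first 3 genes lies between 29.5% and 32%.

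Upstream of the start the 3 marked genes were alike. IMR90 regions covered 6.1 of the 20 kb before TBX2, 5.9 before TBX3 and 6.4 before TBX5. Downstream, IMR90 regions covered 14.5% of the 20 kb beyond TBX2 and 16.5% of that beyond TBX3, and none of that beyond TBX5. The genes differ in length, at 10 kb for TBX2, 14 kb for TBX3 and 56 kb for TBX5. The 20 kb beyond TBX5 therefore begin much further from the gene start. Within the genes the covered length was 9.2 kb at TBX2, 12.7 kb at TBX3 and 9.9 kb at TBX5. With 1 library, the order of the 3 genes by coverage cannot be set against any replicate spread.

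Because RefSeq promoter sequences were found for the activator genes TBX4 and TBX5 only, they are shown here for these genes, whose starts lay outside (TBX4) and under (TBX5) H3K18ac in IMR90. Each is the 250 bases before a RefSeq start on GRCh38.p14, read 5′ to 3′ along the gene, with CG dinucleotides in capitals. TBX2 and TBX3 had no entry. The lines give TBX4 at chr17:61456238-61456487 on the plus strand, then TBX5 at chr12:114408013-114408262 (start 1) and at chr12:114408443-114408692 (start 2), both on the minus strand.
TBX4: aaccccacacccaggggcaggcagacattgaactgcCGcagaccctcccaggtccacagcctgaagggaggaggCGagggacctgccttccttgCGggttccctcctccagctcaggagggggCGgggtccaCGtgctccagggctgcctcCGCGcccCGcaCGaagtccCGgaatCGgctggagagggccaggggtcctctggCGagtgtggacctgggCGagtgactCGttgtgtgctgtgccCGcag
TBX5 start 1: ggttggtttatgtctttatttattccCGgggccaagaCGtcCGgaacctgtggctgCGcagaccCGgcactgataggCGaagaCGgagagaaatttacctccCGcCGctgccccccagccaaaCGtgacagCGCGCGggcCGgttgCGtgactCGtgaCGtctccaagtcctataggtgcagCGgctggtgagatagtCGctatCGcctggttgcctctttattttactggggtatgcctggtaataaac
TBX5 start 2: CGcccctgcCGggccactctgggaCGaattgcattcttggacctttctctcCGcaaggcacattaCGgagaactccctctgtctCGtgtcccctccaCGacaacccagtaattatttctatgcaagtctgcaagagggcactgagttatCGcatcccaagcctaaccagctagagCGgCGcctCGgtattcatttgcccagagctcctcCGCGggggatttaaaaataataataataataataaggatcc
These 3 sequences hold 15, 20 and 13 CG dinucleotides, against a median of 11 over 35116 RefSeq promoters of the same length, and their GC contents are 68.8%, 56.8% and 51.2% against a median of 58%. The T-box binding motif AGGTGTGA was searched on both strands and was in none of the 3 sequences, and 0.786% of all promoters hold it. The 2 TBX5 starts are 430 bases apart, less than the extent of the 7300 bp region on either side of the gene start as placed here.

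With IMR90 regions joined up to 1 kb apart, the 3 domains were similar in size and in where they began. The TBX3 domain spanned 21.5 kb at 115105601 to 115127100 and was made of 7 regions, the TBX2 domain 19.7 kb at 59470901 to 59490600 with 5 regions, and the TBX5 domain 18.9 kb at 114834201 to 114853100 with 8 regions. They ranked 23, 29 and 32 by span among 42641 such domains, of which 94 (0.22%) spanned 15 kb or more. H3K18ac regions filled 87.0%, 88.8% and 82.5% of them, with gaps of 300 to 1000 bp between neighbouring regions. Each domain began upstream of its gene, by 5.1 kb at TBX3 and 6.1 kb at TBX2 and TBX5. It ended 16.4 kb after the start of TBX3, past the gene end, 13.6 kb after that of TBX2, also past the gene end, and 12.8 kb after that of TBX5, well inside the gene. The spans, their order and where the domains began depended on the distance joined. With 500 bp allowed, the widest pieces measured 10.2 kb at TBX2, 12.2 kb at TBX3 and 15.3 kb at TBX5, at ranks 108, 52 and 26. With 2 kb allowed, they measured 23.5, 25.5 and 18.9 kb, at ranks 50, 37 and 108. At 500 bp the widest piece began 0.6 kb inside TBX2, and 4.3 and 6.1 kb upstream of TBX3 and TBX5. At 2 kb the beginnings lay 9.9, 9.1 and 6.1 kb upstream of TBX2, TBX3 and TBX5.

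**Figure D3:**
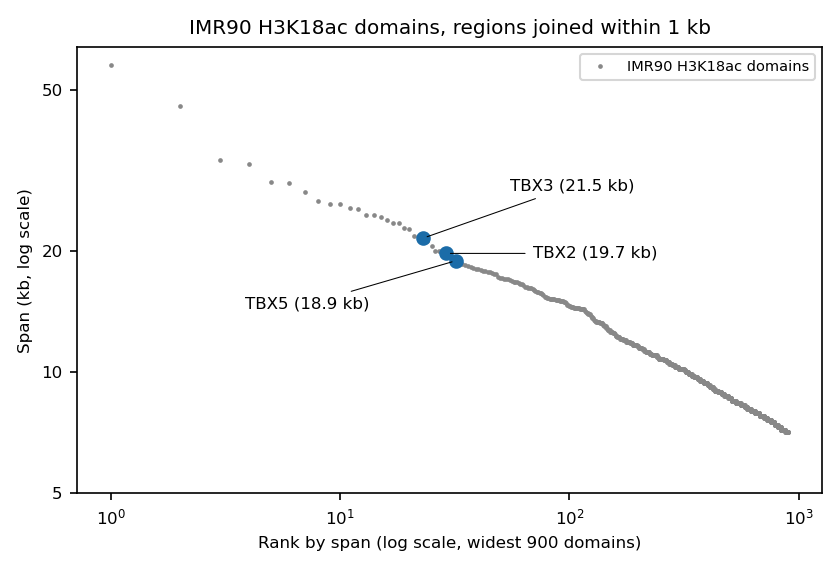
Span in kb of the 900 widest IMR90 H3K18ac domains, made by joining regions up to 1 kb apart, against their rank, on log axes; blue points mark TBX3, TBX2 and TBX5. The 3 genes lie at 21.5, 19.7 and 18.9 kb, at ranks 23, 29 and 32.

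Among the IMR90 regions of the 4 windows, 15 of 35 (42.9%) measured 1 kb or more and 7 of 35 (20.0%) 3 kb or more, against 11.9% and 0.754% of the whole list. The 7 widest were spread over TBX3 with 3, TBX2 with 2 and TBX5 with 2. Width was what the genes had been noticed for, so these shares are a description. The median region of the windows was 600 bp long, against 300 bp in the list. Beside the wide regions the windows also held short, weak ones, down to 100 bp with a score above that of 3.5% of the list.

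The overlap of the IMR90 regions with H1 is given beside that of the whole list, without a test. The regions of the windows were wider than those of the list, so the sets compared are unlike. Of the 35 IMR90 regions 3 (8.57%, Wilson 95% interval 2.96 to 22.4) overlapped an H1 region by at least 1 bp, against 14.5% of the whole IMR90 list. The 3 were the 3500 bp region upstream of TBX2, the 3800 bp region upstream of TBX3 and the 2100 bp region inside TBX5. Of the 7 regions of 3 kb or more 2 had an H1 overlap, and over the list 236 of 637 (37.0%) had one. Seen from H1, 4 of the 5 regions (80.0%, 37.6 to 96.4) lay in an IMR90 region, against 19.0% of the H1 list. IMR90 regions covered 21.2% of the windows, and the genes had been chosen for wide IMR90 regions. The share seen from H1 is therefore a description, and enrichment was not tested. The intervals cover the counting of regions only, and neighbouring regions are not independent. All 5 H1 regions were 100 bp long, as were 53.7% of the H1 list, and their scores exceeded those of 21.7% to 43.0% of that list. None of the 5 was in the upper 50% of H1 regions by score.

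**Figure D4:**
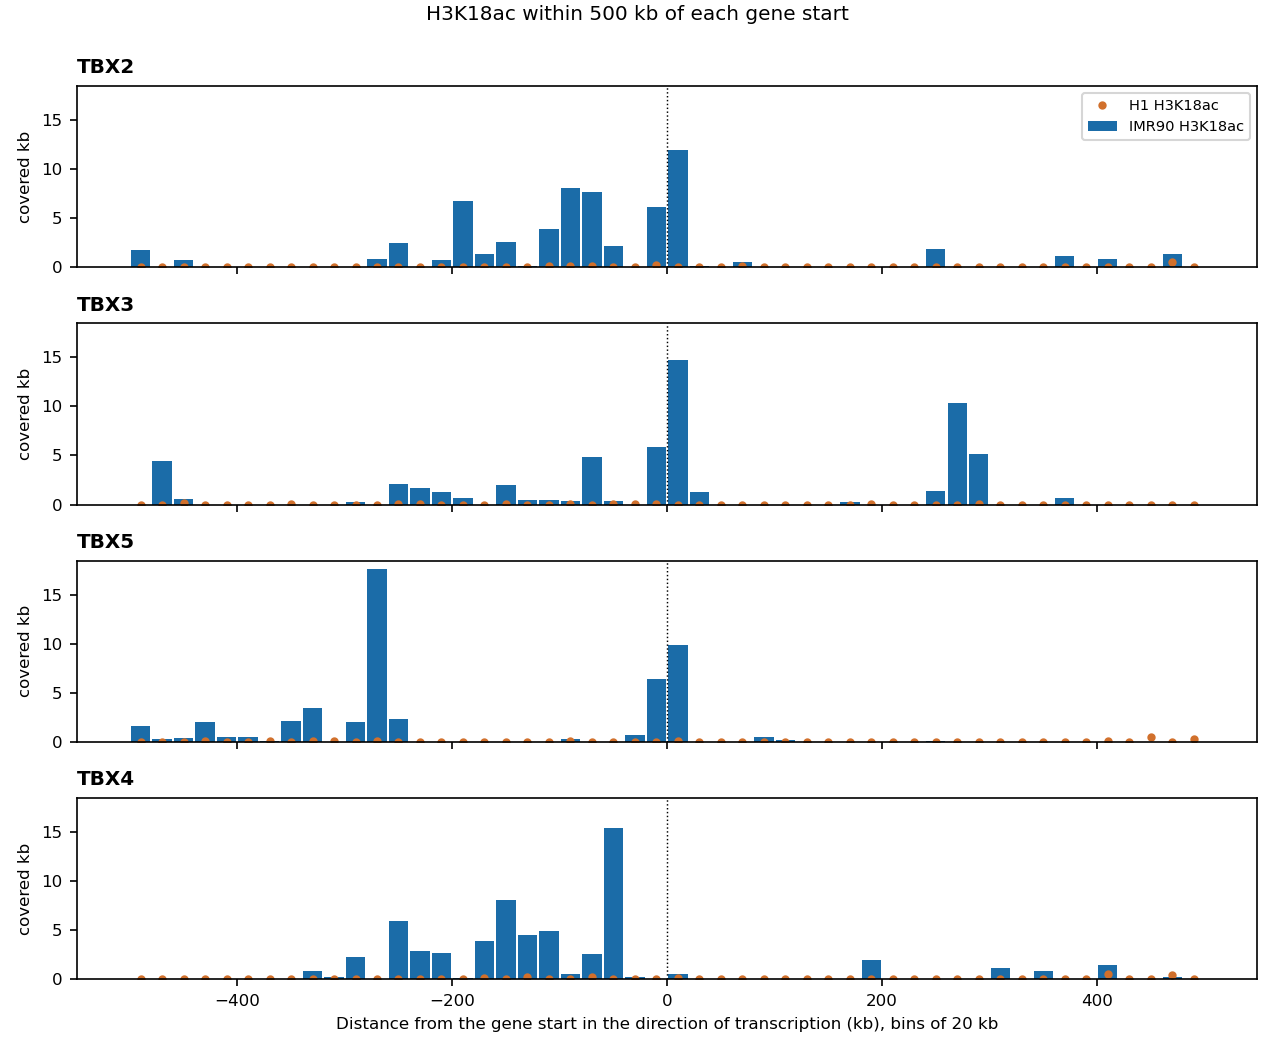
H3K18ac within 500 kb of the start of each gene, as kb covered in bins of 20 kb along the direction of transcription; blue bars show IMR90 and orange points H1. For TBX2, TBX4 and TBX5 the IMR90 signal beyond 20 kb lies mostly upstream, and the tall bins 260 to 280 kb from TBX3 and from TBX5 belong to the partner gene.

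The surroundings of the genes also differed by side. Between 20 and 500 kb upstream of TBX2, IMR90 regions covered 39.3 kb, against 5.7 kb from 20 kb beyond the gene to 500 kb from its start. Around TBX5 the same stretches held 33.8 kb upstream, including the TBX3 window, and 0.8 kb downstream. Around TBX3 they held 19.7 kb and 18 kb, the latter including the TBX5 domain. For TBX4 the upstream stretch held 55.0 kb, including the TBX2 domain, and the downstream stretch 5.4 kb. The members of each pair share these surroundings, so they are not independent. Within 1 Mb centred on the gene start, the window of TBX3 held 36.7% of the IMR90 coverage, that of TBX5 32.0%, that of TBX2 28.8% and that of TBX4 0.821%. H1 regions covered 1.1 to 1.6 kb of the same 4 stretches of 1 Mb.

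In the stretches between the paired genes IMR90 H3K18ac lay mostly near TBX2, TBX3 and TBX5. Between TBX2 and TBX4, 46.0 kb apart, the IMR90 list had 4 regions over 2.9 kb and H1 none, and no IMR90 region lay in the last 28.1 kb before TBX4. Between TBX5 and TBX3, 261 kb apart, IMR90 had 12 regions over 10.7 kb, of which 3 lay more than 20 kb from either gene, and a run of 151.4 kb had none. H1 had 1 region of 100 bp between TBX5 and TBX3. The limit of 20 kb left few regions undecided. The outermost IMR90 regions inside it lay 17.8 kb beyond the end of TBX2, at 59504801 to 59504900, and 17.4 kb upstream of TBX5, at 114864401 to 114864500. The nearest IMR90 regions outside it lay 20.7 kb upstream of TBX5, at 114867701 to 114867800 with 100 bp, followed by one of 600 bp at 114868601 to 114869200.

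BrdU regions were few at these genes. The pair on chromosome 12 held all of them: 2 in the H1 control, 1 in IMR90, 1 in the H1 knockdown and none in Saos-2. TBX2 and TBX4 held none in any of the 4 lists. Of genome tiles as long as the TBX5 window, 13.6% held a BrdU region in IMR90, 14.2% in Saos-2, 13.6% in the H1 control and 5.52% in the H1 knockdown, so that 1 region in 1 window is not unusual. For tiles as long as the TBX3 window the share was 8.32% in the H1 control. Most tiles of these lengths thus held no region, so an empty window is not unusual either. Tiles as long as the TBX2 and TBX4 windows were not counted for BrdU, and the pairs were not tested against each other.

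Inside TBX5 the IMR90 and H1 control lists named the same 100 bp, at 114798301 to 114798400, 48.6 to 48.7 kb from the gene start and 7.3 kb from the gene end. Its score of 143 was above that of 63.6% of the IMR90 list, and its score of 119 in the H1 control above that of 60.6% of that list. Over the whole control list 20.5% of regions overlapped an IMR90 BrdU region and 2.01% had the same start and end in it. Neither the Saos-2 nor the knockdown list had a region there. The nearest IMR90 H3K18ac region lay 35.8 kb away and the nearest H1 H3K18ac region 39.5 kb away. The listed BrdU and H3K18ac regions of TBX5 thus lay apart in both cell lines. That separation rests on 1 BrdU region per line and, in H1, on 1 H3K18ac region. The share of all BrdU regions that lie apart from H3K18ac of the same line was not computed. Whether TBX5 differs from the lists as a whole in this is therefore not known. The H1 BrdU culture also differed from the H1 H3K18ac library in stated treatment.

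At TBX3 the H1 control region of 100 bp, at 115094801 to 115094900, lay 13.1 kb beyond the gene end. It fell inside the IMR90 H3K18ac region of 700 bp at 115094301 to 115095000, as 2.36% of control regions fell in an IMR90 H3K18ac region. The nearest H3K18ac region of H1 itself was 27.8 kb away. The control score of 36 exceeded that of 26.4% of its list, and the region had no counterpart in the other BrdU lists.

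After the knockdown of EP300 and CREBBP neither control region was listed, and 1 region was listed that the control lacked. It measured 200 bp at 114855201 to 114855400, between 8.4 and 8.2 kb upstream of TBX5, with a score above that of 84.3% of the knockdown list. It lay 2.1 kb outside the IMR90 TBX5 domain and 17.2 kb from the H1 H3K18ac region. The knockdown list as a whole is shorter than the control list, at 1755 against 5086 regions. With 1 library each, the regions listed on 1 side only were not tested. The share of all control regions that the knockdown list lacks, and the reverse share, were not computed. Whether the regions at these genes differ from the lists as a whole in this is therefore not known. The levels of EP300 and CREBBP were not analysed here. Well outside the window, 42.5 kb upstream of TBX5, the knockdown list had a region at 114889501 to 114889600 and the Saos-2 list one at 114889501 to 114889700.

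The absence of BrdU regions at TBX2 and TBX4 was part of a longer bare stretch of chromosome 17. No IMR90 BrdU region lay between 56446700 and 60869801, a gap of 4.42 Mb. The H1 control list had a gap of 2.64 Mb there, the knockdown list one of 2.65 Mb and the Saos-2 list one of 2.04 Mb. By number, most gaps were shorter: 97.9% of those in IMR90, 95.5% in the H1 control, 82.6% in the knockdown and 95.2% in Saos-2. By length, long gaps held much of the sequence. Of all autosomal bases between neighbouring regions of the IMR90 list, 38.5% lay in gaps at least as long. This share was 40.9% in the H1 control, 63.5% in the knockdown and 51.4% in Saos-2. Gaps across centromeres and unmapped sequence were counted in these shares. The H3K18ac domain of TBX2 in IMR90 thus lay within a stretch that had no BrdU region in that cell line.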

How the data were processed

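BrdU pull-down DNA and H3K18ac chromatin were sequenced in 6 libraries with a region list, 1 per group; the 6 input libraries were not used here. Bowtie 0.12.7 and hg19 are named per the submitters' processing notes. Not given in the sources used here are the region caller, its threshold and its use of the inputs. The deposited lists give a chromosome, start, end and a whole-number score per region, on a grid of 100 bp with both ends included, and the authors' score was used only for ranks within a list. Depth per sample is unknown.

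The members and lists were chosen with earlier results of these data known. Windows were the gene with 20 kb on each side, and an overlap needed 1 bp. All regions of the windows were counted; those named were, per window and list, the region of highest score and the longest, every region of 1 kb or more, those shared by 2 lists, every BrdU region and those nearest the 20 kb limit. A few further short regions were named after their values were seen. Shares have Wilson 95% intervals. With 1 library per group no test was made. The other T-box genes and the cell type markers were not analysed here, because no hg19 annotation was used. RefSeq tables (GRCh38.p14) gave neighbours and promoters, and the latter matched 2 of 4 genes. The strand of TBX2 and TBX3 was taken from general knowledge. Python 3.11.15, numpy 2.4.6, pandas 2.3.3, scipy 1.17.1 and matplotlib 3.10.9 were used, and the overlap counts were checked on simulated regions. Alternatives were other flanks, the whole stretch between neighbours, stricter or merged lists, other overlaps and other tiles.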

Additional observations from a re-analysis of the deposited data

How the results depend on the processing

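IMR90 H3K18ac covered more than H1 in each of the 4 windows under all 6 settings of window and list. It covered 9.2 to 19.4 kb at TBX2, 12.7 to 21.9 kb at TBX3, 9.9 to 17.7 kb at TBX5 and 0.3 to 0.5 kb at TBX4. H1 covered at most 0.2 kb. The settings share most of their regions, and the genes had been chosen for wide IMR90 regions, so this order is a description. At TBX4 it rests on at most 2 short IMR90 regions and 1 H1 region. The counts moved by construction with the window and the list. In the gene bodies alone IMR90 had 14 regions over 32.3 kb and H1 2 regions over 0.2 kb, with 1 BrdU region in the H1 control and 0 in the knockdown. A flank of 10 kb left 1 BrdU region in the H1 control. A flank of 50 kb, or the whole stretch between neighbours, gave 2 BrdU regions in IMR90, 1 in Saos-2 and 2 in the knockdown. In the upper 50% of regions by score, IMR90 kept 22 regions, H1 0 regions over 0.0 kb and the H1 control 1 BrdU region. Merging within 1 kb left 12 IMR90 regions and within 10 kb 5.

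The share of IMR90 regions with an H1 overlap, 8.57%, became 0% (0 of 22) in the upper 50% by score and 0% (0 of 35) where 50% of the region had to be covered. Both shares of 0% were fixed by the settings. In the upper 50% H1 kept 0 regions in the windows. H1 regions of 100 bp cannot cover 50% of the overlapped IMR90 regions, which measured 2100 bp or more. The share rose to 25% (3 of 12) and 60% (3 of 5) after merging within 1 and 10 kb. The number with an overlap stayed at 3 while merging lowered the number of regions. Tiles of 100 kb gave 0.607% for TBX2, 0.353% for TBX3 and 38.5% for TBX4, and tiles with an H3K18ac region 0.183%, 0.104%, 47.5% and, for TBX5, 1.08%. Joining within 500 bp or 2 kb, chosen after seeing the data, gave domains of 10.2 and 23.5 kb at TBX2, 12.2 and 25.5 kb at TBX3, and 15.3 and 18.9 kb at TBX5. No paired analysis was possible because each group has 1 library.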
